A study of Danio rerio with 10 samples.

Results

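The endoplasmic reticulum (ER) folding and stress genes examined here are a list of 42 zebrafish gene names for chaperones, isomerases, stress sensors, degradation factors and translocation subunits. Of these names, 38 match a gene symbol in the deposited table of 21756 genes, and all 38 passed the filter on low values (2 or more libraries at a value of 1 or above). Of the other 4 names, calrl2 is a RefSeq synonym of calr, which is already listed, ero1a corresponds by RefSeq gene identifier to ero1l, and calrl to calr3b. No gene in the table matched dnajb9a. The values of ero1l and calr3b are given beside the 38 and are not counted with them.

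The libraries were made from bulk RNA of cells from brains of fish aged 3 months, all of the line Neuro:NTR-mCherry x mpeg1:GFP. Read from its name, this line carries the enzyme nitroreductase fused to mCherry in neurons, and GFP under the mpeg1 promoter in microglia. Nitroreductase turns metronidazole (MTZ) into a toxic product, so that MTZ kills the cells that carry it. Activated microglia are GFP-positive cells of fish given MTZ for 24 h (samples 3 and 7) or 48 h (samples 4 and 8), and control microglia are GFP-positive cells of fish given DMSO (samples 1 and 5 used here). The other brain cells are the GFP-negative fraction of the same line (samples 2, 6 and 10), for which the labels name no treatment. Because mpeg1 is a general macrophage gene, the gate does not separate microglia from other macrophages. Nothing in the labels says how many fish went into a sample or whether samples came from separate fish, so the spread behind the p-values may be technical.

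Proteins that enter the secretory route are threaded into the ER by the Sec61 channel, folded there by the Hsp70 protein BiP (hspa5), the Hsp90 protein Grp94 (hsp90b1), lectin chaperones and disulfide isomerases, and, where folding fails, pulled back and degraded. The sensors Ire1, Perk and Atf6 read the load of unfolded protein. Ire1 splices the mRNA of xbp1, Perk phosphorylates eIF2 alpha and thereby favours translation of Atf4, and cleaved Atf6 enters the nucleus, and together these branches raise transcription of chaperone and degradation genes. These are steps of splicing, phosphorylation and cleavage, which gene-level RNA values do not show. Macrophages and microglia secrete and degrade large amounts of protein, and use the Ire1 branch in immune signalling as well.

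The libraries hold between 6185540 and 12815571 reads counted on genes, with 6900171 and 6897191 in the controls and 8600052 to 12815571 in the activated libraries. Mitochondrial genes take 8.99% and 6.69% of them in the controls, 4.37% and 2.87% at 24 h, 5.58% and 1.7% at 48 h, and 5.19% to 11% in the other brain cells. Both the depth and this share thus separate control from activated libraries, as the values of hspa5 and hsp90b1 do, and their part in the results was not tested. The column of control sample 9 is identical to that of 24 h sample 3 in all 21756 genes, so it was counted once, as 24 h sample 3, which left 2 controls. The authors' deposited table of fold changes gives the same reading. Over the 7288 genes whose mean value reached 20, its 24 h against 48 h folds lie within a median of 0.00123 (log2) of the ratio of group means when that column is taken as a 24 h library, against 0.109 without it. The same table's folds against control match no set of the deposited controls (median distance 0.144 with samples 1 and 5). If the authors' control mean was the plain mean of 3 libraries including samples 1 and 5, the table implies the value of 1 more control for each gene. This implied control was derived after the data had been seen and is a calculation, not a deposited library. It lies a median of 0.518 from control 1 and 0.404 from control 5, where controls 1 and 5 lie 0.345 apart (log2), and for the ER genes it changes several statements, so it is given beside them.

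As a check of the sort, mpeg1.1 stood at 2550 and 2730 in the control microglia, at 2100 to 6050 in the activated microglia and at 2.67 to 5.74 in the other brain cells. The unit is the normalized signal the authors deposited, and a single read adds 0.07201 to 0.1545 to it depending on the library. In bulk RNA, fewer cells of a type and less RNA per cell cannot be told apart. Markers of other cell types differed between the microglia groups. The summed signal of 5 erythrocyte markers was 315 and 56.4 in the controls and 9.69 to 19.5 in the activated libraries, that of 12 oligodendrocyte markers 2240 and 1190 against 478 to 863, and that of 17 neuronal markers 216 and 226 against 96.1 to 153. The 11 markers of B and plasma cells, which make large amounts of ER, summed to 255 and 83.4 in the controls and 32.3 to 149 in the activated libraries. The 13 markers of radial glia and astrocytes summed to 4030 and 4990 against 3220 to 27400, with the highest value in 48 h sample 8. The other brain cells had 8630 to 14800, below that value, so this sum need not track such cells. Of the 13, 0 lay above and 4 below both controls in every activated library. Of this list, gfap was at 10.7 and 13.6 in the controls, 1.54 and 11.6 at 24 h, and 1.94 and 1.1 (sample 8) at 48 h. As the sum was highest in sample 8, gfap does not stand for the list there. The 8 markers of endothelial and mural cells summed to 313 and 248 against 343 to 475 (21.7 to 28.2 in the other brain cells). Those of neutrophils, 8 as well, summed to 617 and 592 against 263 to 524 (75.5 to 103 in the other brain cells). No marker of these lists was at 0 reads in all microglia libraries, and the part of such cells in the results below was not tested.

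The central question of the series is how microglia change when neurons around them die. Activated microglia carried more RNA of the ER chaperones hspa5 and hsp90b1 than the 2 control libraries, with means 5.21 and 4.47 times those of the controls. These 2 of the 38 passed the test (limma on log2(value + 1), Benjamini-Hochberg adjusted p under 0.05 over 21714 genes), and none of the 38 passed in the other direction. Of all genes tested, 0.834% were called higher and 0.47% lower. The median log2 fold change of the 38 was 0.84, where that of all genes was 0.01, and the values of all 4 activated libraries lay above both controls for 20 of the 38 (15.9% of all genes) and below both for 2 (15.5% of all genes). At an unadjusted p under 0.05, 17 of the 38 were higher and 1 was lower, against 11.2% and 9.33% of all genes. The 2 calls are not stable, and with quantile normalization that of hspa5 was lost. The counts under other settings that follow have no share of all genes beside them. They describe how firm the calls are and not the ER genes as a set. Across 19 alternative settings hspa5 was called in 9 and hsp90b1 in 11, and either call was lost when any 1 of samples 1, 3, 4, 5 or 7 was left out. Without control sample 1, or without sample 3, 4 or 7, none of the 38 was called, while without 48 h sample 8, 7 were called higher (the 2 genes, dnajc3a, canx, calr, sel1l and ssr1) and 1 lower (sec61g). Without control sample 5, pdia4 and syvn1 were called in place of the 2.

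**Figure D1:**
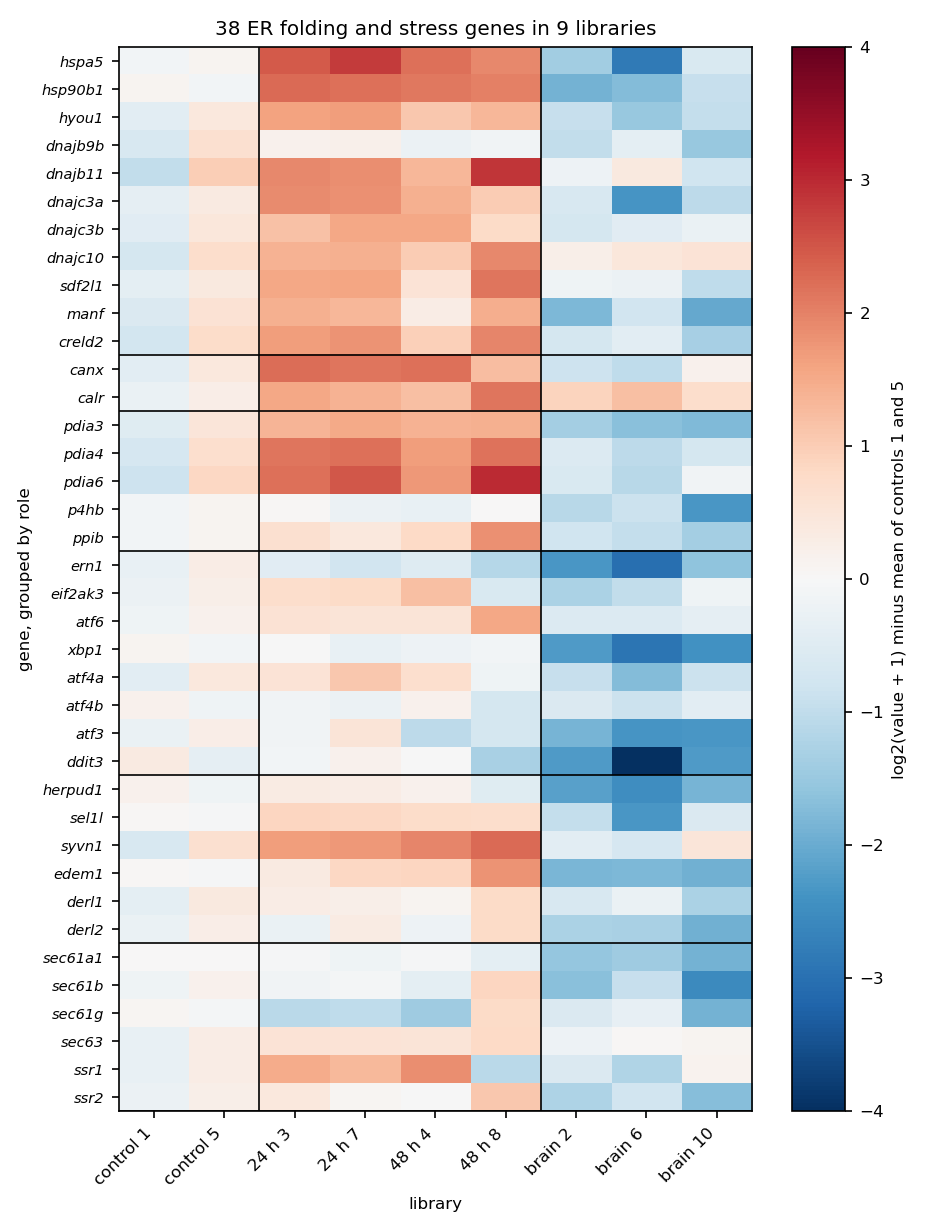
Heat map of the 38 genes (vertical axis, grouped by role and separated by lines) in the 9 libraries (horizontal axis). Colour gives log2(value + 1) minus the mean of controls 1 and 5, with red above and blue below. The 24 h and 48 h columns are red through most of the chaperone and isomerase groups, while the sensors and transcription factors are mostly pale there. In the other brain cells xbp1, ddit3, ern1 and atf3 of that group are blue, and eif2ak3, atf6 and atf4b are paler.

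The Hsp70 and Hsp90 chaperones and their partners had a median log2 fold change of 1.45 over 11 genes. Of the 11, 9 lay above both controls in every activated library (15.9% of all genes). An implied control exists for 10 of them, and it falls within the activated range in 6. With it, every activated library lay above every control for 4 of the 10 (13.1% of the 7288 genes). The normalized signal of hspa5, BiP itself, was 202 and 236 in the controls, 1200 and 1530 in the 24 h libraries, 1010 and 823 in the 48 h libraries, and 82.7, 29.9 and 142 in the other brain cells. The activated and control libraries did not overlap, and the log2 fold change was 2.34 ± 0.31 (SE; limma adjusted p = 0.044; range over the alternatives 0.0132 to 0.611). The implied control has hspa5 at 892, inside the activated range, so the separation rests on the 2 deposited controls. With that value as 1 more control the log2 fold change was 1.67 ± 0.49 and the limma adjusted p 0.0799 over 7288 genes, and in the authors' deposited table it is 1.34 with an FDR of 0.163.

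Signal of hsp90b1, which encodes the ER Hsp90, was 153 and 129 in the controls, 682 and 656 in the 24 h libraries, 607 and 573 in the 48 h libraries, and 37, 41.4 and 73.1 in the other brain cells. Here the activated libraries lie close together, between 573 and 682, and above both controls. The log2 fold change was 2.16 ± 0.19 (limma adjusted p = 0.0349; range over the alternatives 0.00737 to 0.611). Its implied control is 328, above both deposited controls and below every activated library. With it, the log2 fold change was 1.75 ± 0.33 (limma adjusted p = 0.0455 over 7288 genes), and the authors' deposited table gives 1.63 with an FDR of 0.00818.

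The remaining partners did not pass the test with controls 1 and 5. For hyou1, an Hsp70-like exchange factor of BiP, the signal was 38.9 and 69.3 in the controls, 161 and 167 at 24 h, and 111 and 131 at 48 h. Its log2 fold change was 1.42 ± 0.30 (limma adjusted p = 0.0776). The implied control of hyou1, 60.8, lies between the other 2 controls. With it, and over 7288 genes in place of 21714, the gene passed the test at 1.34 ± 0.28 (limma adjusted p = 0.0476). The smaller set of genes changes the adjusted p too, and its part in this call was not separated from that of the added control. The authors' deposited table calls hyou1 at 1.32 with an FDR of 0.00911.

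The J-domain co-chaperones of BiP were less even. Signal of dnajc3a was 13 and 21.7 in the controls, 64.7 and 62.7 at 24 h, and 47.1 and 35.4 at 48 h, and its implied control of 24 is still below all of these. In dnajb11 the controls differed widely, at 23.4 and 95, and the activated libraries ran from 121 to 347, with an implied control of 145 among them. For dnajc10, which also reduces disulfide bonds, the controls were 6.4 and 18.9, the activated libraries 23.7 to 45.1, and the implied control 13.2. The pattern of dnajc3b was 11.8 and 23.4 against 28.9 to 51.1, with an implied value of 34.5. Only dnajb9b among these showed no shift, with 3.16 and 9.2 in the controls and 4.57 to 6.54 in the activated libraries (log2 fold change 0.00 ± 0.44), at a low signal.

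Genes known as targets of the stress response that act around BiP leaned the same way without passing the test. Signal of sdf2l1 was 19.4 and 34.5 in the controls and 38.4 to 117 in the activated libraries, and that of creld2 6.09 and 18.9 against 22.1 to 44.9. For manf, which encodes a small ER protein that can be secreted and protects neurons in mammals, the controls were 29.3 and 67.2 and the activated libraries 121, 112, 55 and 123, so that 48 h sample 4 lay inside the control range. For all of sdf2l1, creld2 and manf the implied control, at 52.6, 25 and 100, falls within the activated range.

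**Figure D2:**
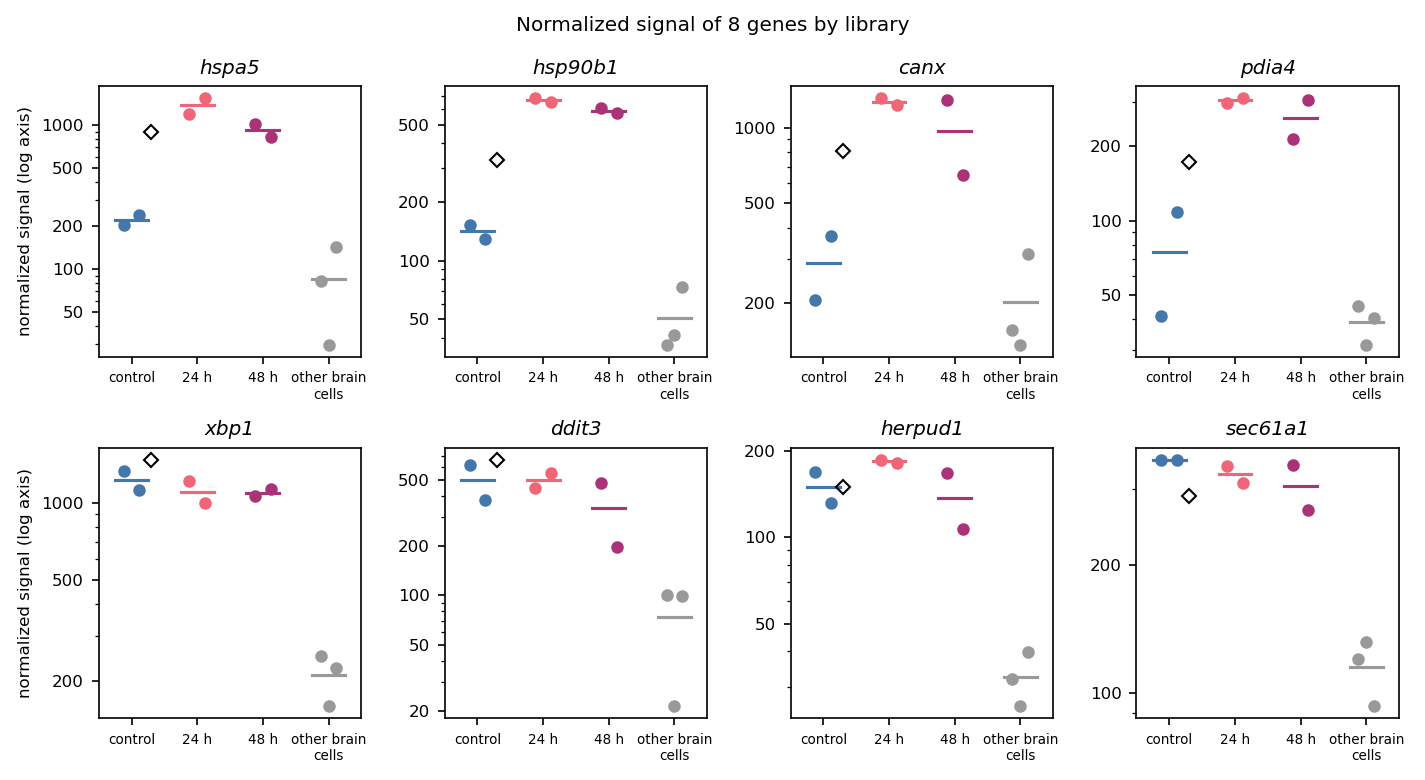
Normalized signal (vertical log axes) of 8 genes in each library (dots), with group means as bars, for control, 24 h and 48 h microglia and the other brain cells (horizontal axes). The open diamond is the control implied by the authors' deposited folds and is not part of the mean. The diamond of hspa5 (892) reaches the activated libraries, that of hsp90b1 (328) stays below them, and xbp1 and ddit3 overlap between control and activated microglia and are lower in the other brain cells.

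The lectin chaperones hold newly made glycoproteins while they fold. Signal of canx, the membrane-bound calnexin, was 207 and 371 in the controls, 1310 and 1230 in the 24 h libraries, 1290 and 647 in the 48 h libraries, and 156, 137 and 314 in the other brain cells. All 4 activated libraries lay above the controls, with a log2 fold change of 1.95 ± 0.42 (limma adjusted p = 0.0782), but the implied control of canx, 805, exceeds 48 h sample 8. For calr, the soluble calreticulin, the controls were 67.9 and 97.8, the 24 h libraries 240 and 215, the 48 h libraries 190 and 364, and the other brain cells 152, 190 and 134. The log2 fold change of calr was 1.57 ± 0.32 (limma adjusted p = 0.0728), its implied control of 152 stays below the activated libraries, and the authors' deposited table calls it at 1.25 with an FDR of 0.0304. The related genes calr3a and calr3b stand at 1.08 (FDR 0.0432) and 1.55 (FDR 0.00893) in that table. In calr3b the controls were 30.8 and 79.1 and the activated libraries 276, 266, 177 and 77.6, so sample 8 overlaps them. How reads were divided between these similar calreticulin genes is not given in the sources used here.

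The disulfide and proline isomerases had a median log2 fold change of 1.42 over 5 genes. Of the 5, 4 lay above both controls in every activated library (15.9% of all genes). Signal of pdia6 was 36.8 and 116 in the controls, 303 and 372 at 24 h, and 218 and 523 at 48 h. Its log2 fold change, 2.34 ± 0.54, equals that of hspa5, but the controls differ more and it did not pass the test (limma adjusted p = 0.0885). The implied control of pdia6 is 176, and the authors' deposited table calls it at 1.69 with an FDR of 0.022.

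For pdia4, the controls were 41.3 and 108, the 24 h libraries 299 and 311, and the 48 h libraries 214 and 306. The log2 fold change was 2.05 ± 0.40 (limma adjusted p = 0.0712), the implied control is 172, and the authors' deposited table calls pdia4 at 1.40 with an FDR of 0.0304. Signal of pdia3, the isomerase that works with calnexin and calreticulin, was 214 and 412 in the controls and 766 to 856 in the activated libraries, which lie close together (log2 fold change 1.42 ± 0.31, limma adjusted p = 0.0788), with an implied control of 441. For ppib, a proline isomerase, 151 and 178 stood against 220 to 587, with the highest value in 48 h sample 8. The founding member of the isomerase family, p4hb, was not part of the pattern, with 48.3 and 56.5 in the controls and 42.6 to 54.3 in the activated libraries (log2 fold change -0.11 ± 0.19). The gene ero1l encodes an oxidase that recharges these isomerases. Its signal was 2.23 and 20.8 in the controls and 28.6 to 45.9 in the activated libraries (2.06 ± 0.73, limma adjusted p = 0.192). The related gene ero1lb, from the wider lists below, overlapped between groups and showed no such shift. It stood at 68.1 and 48.8 in the controls and at 45.2 to 69.9 in the activated libraries (0.08 ± 0.26).

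**Figure D3:**
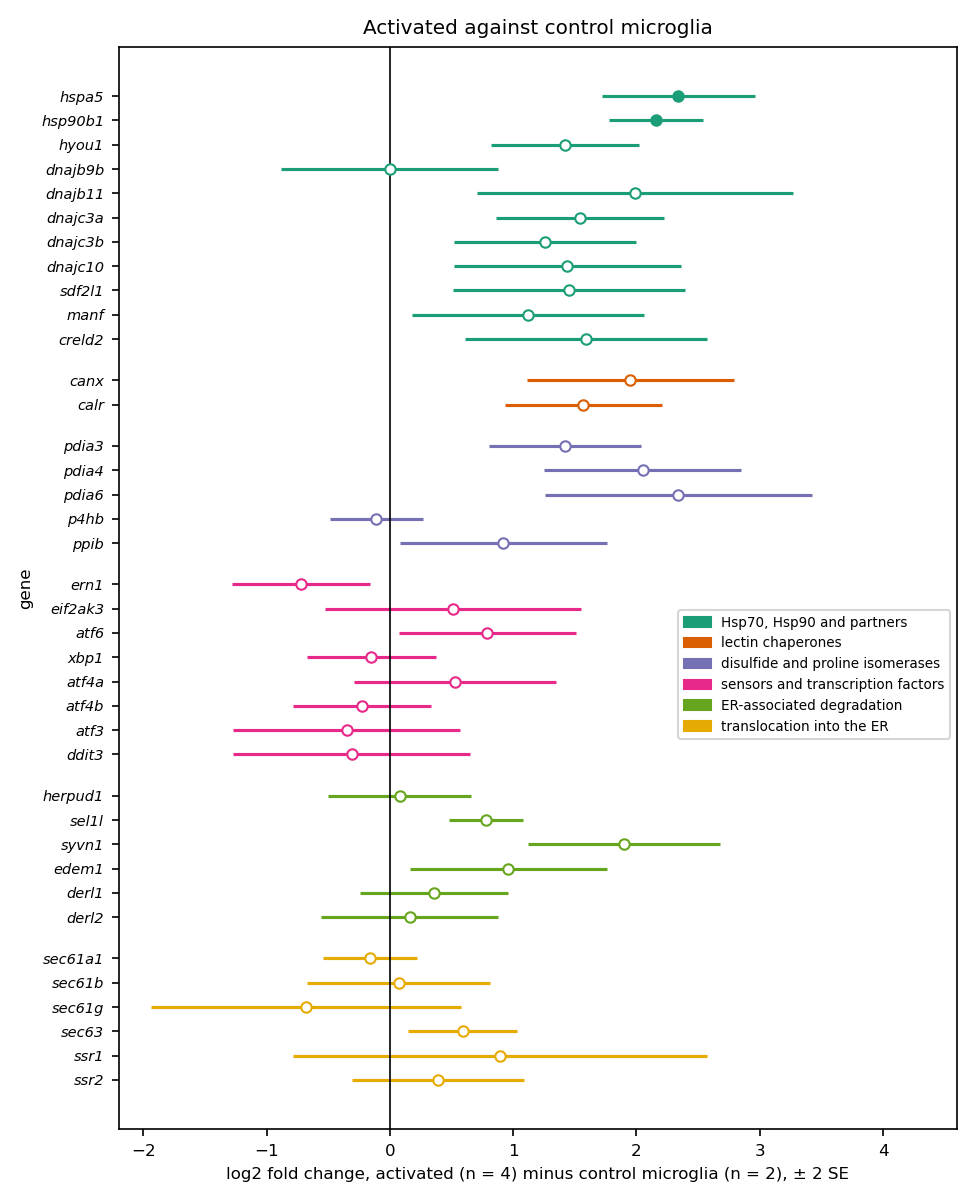
Log2 fold change of the 38 genes (vertical axis, coloured by role) between activated (n = 4) and control microglia (n = 2, horizontal axis), with bars of 2 standard errors to each side. Filled points passed the test. The 2 filled points are hspa5 and hsp90b1, and most chaperone and isomerase intervals lie to the right of 0 while most of those of the sensors cross it.

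The sensors and transcription factors of the response did not share this pattern by their median log2 fold change, which was -0.19 over 8 genes. None passed the test, which held for the lectin chaperones and isomerases too. Of the 8, 1 lay above and 1 below both controls in every activated library (15.9% and 15.5% of all genes). The xbp1 mRNA, the substrate of Ire1, stood at 1330 and 1120 in the controls, 1210 and 994 at 24 h, and 1060 and 1130 at 48 h (log2 fold change -0.15 ± 0.26, with 2 standard errors reaching from -0.67 to 0.37). The groups overlap, the implied control of xbp1 (1470) is above every activated library, and spliced and unspliced xbp1 are not separated by gene-level values. Signal of ddit3, which encodes the factor Chop, was 622 and 381 in the controls, 450 and 552 at 24 h, and 479 and 196 at 48 h, and its implied control is 666.

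Of the sensor genes, ern1 (Ire1) was the 1 gene of the 38 with an unadjusted p under 0.05 in the downward direction. Its signal was 51.7 and 77.8 in the controls and 28.3 to 46.1 in the activated libraries (log2 fold change -0.72 ± 0.28, limma adjusted p = 0.228), but its implied control is 21.4, below all of them, so the separation rests on the 2 deposited controls. With the implied control the difference was -0.21 ± 0.41. For atf6, 41.2 and 52 stood against 70, 66.4, 65.9 and 138, and the implied control of 81.4 lies within the latter. For eif2ak3 (Perk), 17.1 and 24.4 overlapped with 13.1 to 48. The 2 atf4 genes overlapped as well, with atf4a at 35 and 62.3 against 41.3 to 99.6 and atf4b at 336 and 267 against 184 to 339. Signal of atf3, a factor induced downstream of Atf4, was 54.8 and 78 in the controls, 59.1 and 92.9 at 24 h, and 30.8 and 39.5 at 48 h, with an implied control of 28.9.

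ER-associated degradation gave an intermediate picture, with a median log2 fold change of 0.57 over 6 genes and none of them called. Of the 6, 3 lay above both controls in every activated library (15.9% of all genes). The ubiquitin ligase gene syvn1 (Hrd1) and its partner sel1l lay above the controls in every activated library. Signal of syvn1 was 14 and 35.1 in the controls, 73 and 75.6 at 24 h, and 88.9 and 110 at 48 h (1.90 ± 0.39, limma adjusted p = 0.0737). That of sel1l was 52.3 and 48.6 against 82.3 to 93.1 (0.78 ± 0.15, limma adjusted p = 0.0712). Their implied controls, 61.4 and 68.1, are still below the activated libraries. For edem1, whose product marks misfolded glycoproteins for disposal, 123 and 113 stood against 151, 212, 213 and 410, and the implied control of 180 lies within these. Signal of herpud1, a stress-induced scaffold of the degradation complex, overlapped between groups at 168 and 132 against 107 to 186, as did derl1 at 137 and 232 against 193 to 305 and derl2 at 34.2 and 49.2 against 34.3 to 70.5.

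Translocation genes had a median log2 fold change of 0.23 over 6 genes, which became 0.00 after quantile normalization, and none passed the test. The main channel gene sec61a1 stood at 352 in both controls and at 269 to 343 in the activated libraries, below both controls by a little (-0.16 ± 0.19), but its implied control of 290 lies within the activated range. Signal of sec61b was 92.6 and 118 against 78.8 to 190, that of sec61g 34.2 and 30.5 against 14.7, 15.6, 11.4 and 56.1, that of ssr1 22.5 and 34.6 against 79.4, 69.3, 105 and 12.6, and that of ssr2 87.7 and 120 against 102 to 216. In sec61g and ssr1, 48 h sample 8 stands on the other side of the controls from the other 3 activated libraries. For sec63, which couples BiP to the channel, 67 and 100 stood against 118 to 142 (0.59 ± 0.22, limma adjusted p = 0.203), with an implied control of 107.

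The medians of the chaperone, lectin, isomerase, sensor and degradation groups kept their sign under the deposited scaling, quantile normalization and plain RPM scaling. As a share of all reads on genes, the 38 took 0.463% and 0.522% in the controls, 0.964% and 0.975% at 24 h, 0.824% and 0.645% at 48 h, and 0.204% to 0.301% in the other brain cells.

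The controls were not alike for these genes. Control 5 was higher than control 1 in 29 of the 38 (median difference 0.55, log2), whereas over all genes it was higher in 50.3% (median 0.01). An implied value exists for 37 of the 38, and it lies above both deposited controls in 23 of these (62.2%, against 45.3% of the 7288 genes), between them in 8 and below both in 6. With all 3 controls, every activated library lies above every control for 12 of the 37 (32.4%, against 13.1% of the 7288 genes): hsp90b1, hyou1, dnajc3a, dnajc10, calr, pdia3, pdia4, pdia6, ppib, sel1l, syvn1 and sec63. Limma with the implied value called 2 of the 37 higher, hsp90b1 and hyou1, and none lower, where 1.36% and 0.81% of the 7288 genes were called. This count is not like for like with the main test over 21714 genes. With controls 1 and 5 alone, a fit over genes with a mean of at least 20 called 8 genes of the list that the main test did not. The authors' deposited table lists 5 of the 38 with an FDR under 0.05 for pooled activated against control, all of them higher (hsp90b1, hyou1, pdia6, pdia4 and calr), where 2.39% and 3.31% of all genes are listed higher and lower. The implied values come from that table's folds, so the 2 accounts are not independent of each other.

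**Figure D4:**
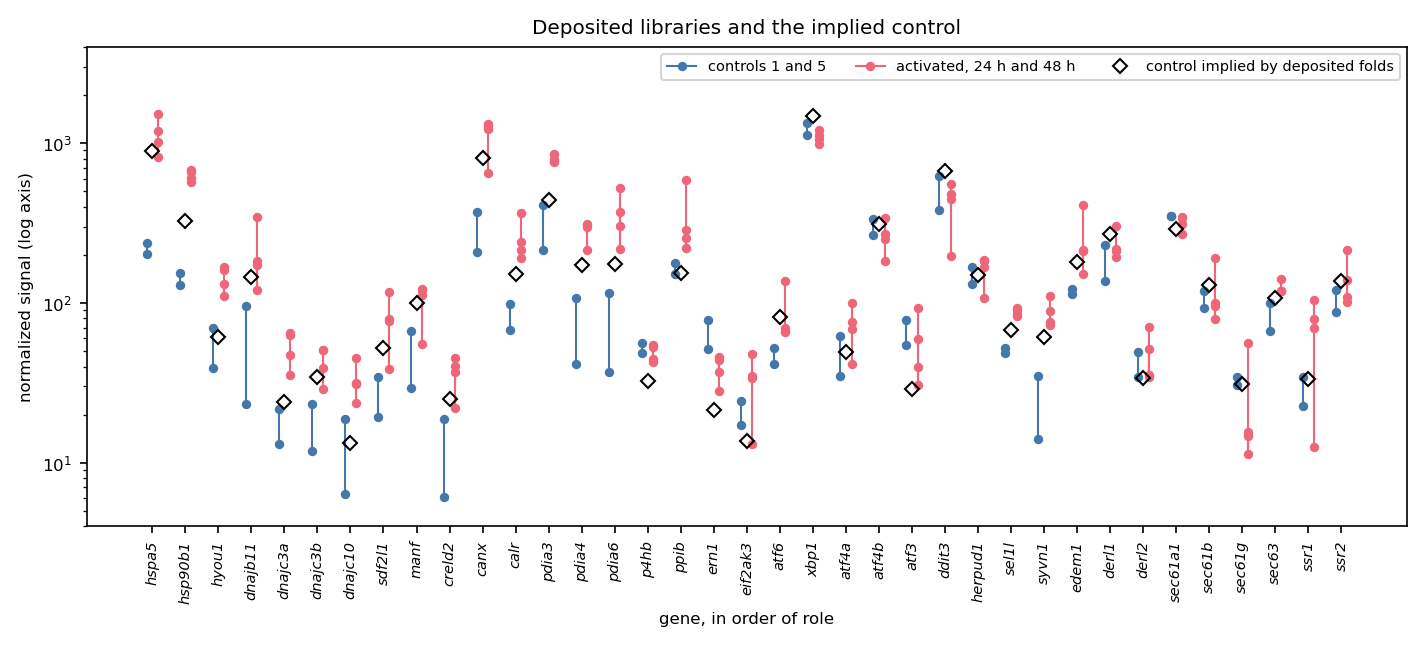
Normalized signal (vertical log axis) of the 37 genes with an implied value (horizontal axis, in order of role). Blue points are controls 1 and 5, red points the 4 activated libraries, and the open diamond the control implied by the authors' deposited folds. For 12 genes, among them hsp90b1 and hyou1, every blue point and the diamond lie below every red point, and for hspa5 (892) and canx (805) the diamond lies among the red points.

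Taken by time, none of the 38 was called at 24 h or at 48 h against control. At 24 h, 0.00461% of all genes were called higher (1 gene) and 0% lower, and at 48 h 0% in either direction, so that the absence of calls is no feature of the ER genes. At an unadjusted p under 0.05 (limma), 14 of the 38 were higher at 24 h and 15 at 48 h, against 9.18% and 10% of all genes, and 0 and 1 were lower, against 6.52% and 8.23%. Both 24 h libraries lay above both controls for 25 of the 38 and below for 3 (29.3% and 25.6% of all genes), and both 48 h libraries for 20 and 3 (21.5% and 22.2%). The median log2 fold change of the 38 was 0.77 at 24 h and 0.80 at 48 h. For hspa5 it was 2.63 ± 0.29 at 24 h and 2.06 ± 0.29 at 48 h, and for hsp90b1 2.25 ± 0.23 and 2.06 ± 0.23. With the implied control these were 1.95 ± 0.58 and 1.38 ± 0.58 for hspa5, and 1.84 ± 0.41 and 1.66 ± 0.41 for hsp90b1. For hspa5 the authors' deposited table gives 1.62 (FDR 0.224) at 24 h and 1.05 (FDR 0.403) at 48 h. The 24 h and 48 h comparisons share their controls. The authors' deposited table lists 2 of the 38 as higher at 24 h (hsp90b1 and hyou1, where 0.588% of all genes are listed) and 4 at 48 h (hsp90b1, calr, pdia6 and ppib, where 2.4% are).

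Between 48 h and 24 h none of the 38, and 0% of all genes, was called by limma in either direction, 0 and 1 of the 38 had an unadjusted p under 0.05 upward and downward (1.89% and 2.25% of all genes), and the authors' deposited table lists none of the 38. The median log2 difference was -0.11, where that of all genes was -0.04. The gene with the unadjusted p was atf3, lower at 48 h (-1.07 ± 0.34, limma adjusted p = 0.892). Both 48 h values lay above both 24 h values for 3 of the 38 and below for 8 (14.3% and 18.2% of all genes). Of the 11 chaperones and partners, 5 had both 48 h values below both 24 h values, among them hspa5 (-0.57 ± 0.29), while syvn1, edem1 and ppib were the 3 of the 38 with both 48 h values above both at 24 h. The 24 h libraries were close replicates for these genes, with a median absolute difference of 0.1 (log2), and the 48 h libraries were not, at 0.87 (0.58 over all genes). Of the 4 activated libraries, 48 h sample 4 was the lowest for 18 of the 38 (22.3% of all genes) and the highest for 4 (22.3% of all genes), and 48 h sample 8 was the lowest for 14 (37.9% of all genes) and the highest for 17 (33.6% of all genes).

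A second comparison asks what distinguishes microglia at rest from the rest of the brain. Control microglia carried more RNA of many ER genes than the GFP-negative cells, among them the sensor gene ern1 and the factor genes xbp1, ddit3 and atf3. Of the 38, 15 were called higher and none lower (15.1% and 20.2% of all genes), with a median log2 fold change of 1.08 against -0.14 for all genes. The control libraries lay above all 3 brain libraries for 23 and below all for 1 (25.9% and 32.6% of all genes). For the fits with 1 library left out that follow, no share of all genes is given. The count rests on few libraries: it was 5 without control 1, 4 without control 5 and 9 without brain sample 2. Calls of xbp1, atf3, herpud1 and edem1 held under all 17 alternatives.

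The sensors and factors had a median log2 fold change of 1.68 here, with 4 of 8 called. For xbp1, 1330 and 1120 in control microglia stood against 252, 160 and 225 in the other brain cells (2.54 ± 0.36, limma adjusted p = 8.775e-04). For ddit3, 622 and 381 stood against 101, 21.3 and 99.8 (2.99 ± 0.65, limma adjusted p = 0.00728). Signal of ern1 was 51.7 and 77.8 against 11.7, 7.04 and 20.3 (2.31 ± 0.46, limma adjusted p = 0.00488), and that of atf3 54.8 and 78 against 17.3, 11.9 and 12.2 (2.18 ± 0.35, limma adjusted p = 0.00174). In all 4 genes the groups do not overlap. The implied control of ern1, 21.4, is only just above the highest brain value, 20.3. With it the log2 fold change of ern1 was 1.80 ± 0.51 (limma adjusted p = 0.0138 over 7288 genes). The genes eif2ak3, atf6, atf4a and atf4b did not pass the test. Of these only eif2ak3 overlapped, so that 7 of the 8 lay above every brain library. With the implied control, over 7288 genes, atf4a passed (1.21 ± 0.36, limma adjusted p = 0.0181), and eif2ak3, atf6 and atf4b did not. The authors' deposited table lists atf4a as higher too (1.24, FDR 0.0108), and not eif2ak3, atf6 or atf4b.

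Among the degradation genes, herpud1 stood at 168 and 132 against 32, 25.8 and 39.9 in the other brain cells (2.18 ± 0.33, limma adjusted p = 0.00119), edem1 at 123 and 113 against 32.6, 33.4 and 30.3 (1.84 ± 0.29, limma adjusted p = 0.00156), and derl2 was called as well. The median of the 6 was 1.39. In the translocation group 3 of 6 were called, with sec61a1 at 352 in both controls against 120, 132 and 93.3 (1.62 ± 0.31, limma adjusted p = 0.00411), besides sec61b and ssr2. Of the isomerases, pdia3 (1.60 ± 0.37), p4hb (1.44 ± 0.47) and ppib (1.03 ± 0.32) were called. Only 2 of the 11 chaperones and partners were, hsp90b1 (1.52 ± 0.37) and manf (1.54 ± 0.51), and hspa5, at 1.61 ± 0.58, was not (limma adjusted p = 0.0596). With the implied control, and over 7288 genes in place of 21714, hspa5 was called too (2.29 ± 0.64, limma adjusted p = 0.0121). It was among 21 of the 37, where 32.5% of the 7288 genes were called higher. The calr gene pointed the other way, with both controls below all brain libraries (-0.94 ± 0.33, limma adjusted p = 0.0547). Its implied control, 152, lies within the brain range of 134 to 190, so that separation rests on the 2 deposited controls. With the implied control the log2 fold change of calr was -0.64 ± 0.34 (limma adjusted p = 0.148 over 7288 genes). In the authors' deposited table it is -0.59 with an FDR of 0.252. The authors' deposited table lists 24 of the 38 as higher in control microglia and none lower, where 17.9% and 24.9% of all genes are listed.

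Activated microglia against the other brain cells gave the largest median for the 38 of the 6 comparisons. There, 33 were called higher and none lower (22.9% and 27.6% of all genes), with a median log2 fold change of 1.87 against -0.05 for all genes, and 27 of the calls held under every alternative tried. Every activated library lay above every brain library for 34 of the 38 and below for none (24.2% and 29.3% of all genes). Of all calls, 45.3% were upward, and 33.1% with plain RPM scaling, which moved the median of all genes to -0.42 and that of the 38 to 1.44. The largest differences were those of hspa5 (3.95 ± 0.49), hsp90b1 (3.68 ± 0.30) and pdia3 (3.02 ± 0.26). All 11 chaperones and partners, all 5 isomerases and all 6 degradation genes were called. The 5 genes not called were calr, atf4b, sec61g, sec63 and ssr1. This comparison shares the brain libraries with that of control microglia and the activated libraries with that of activation.

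The wider secretory route was read from 7 lists of other genes, of which 248 genes could be tested. Activated against control microglia, 4 of the 248 were called higher and none lower (0.834% and 0.47% of all genes), with a median log2 fold change of 0.41. These are rpn1, a subunit of the oligosaccharyltransferase that attaches sugar chains to new proteins, mogs and prkcsh, which belong to the glucosidases that trim those chains before the calnexin cycle, and srp72, a part of the signal recognition particle. Signal of rpn1 was 35.3 and 73.6 in the controls, 283 and 258 at 24 h, and 342 and 299 at 48 h (2.50 ± 0.32, limma adjusted p = 0.0427). That of mogs was 18 and 16.4 in the controls, 67.6 and 63.1 at 24 h, and 60 and 49.3 at 48 h (1.74 ± 0.20, limma adjusted p = 0.0384). For prkcsh, the controls were 61.1 and 61.6, the 24 h libraries 174 and 178, and the 48 h libraries 193 and 232 (1.64 ± 0.18, limma adjusted p = 0.0384). For srp72, 10.3 and 13.9 stood against 45.8, 50.7, 53 and 35.7 (1.85 ± 0.25, limma adjusted p = 0.044). None of the 4 calls held under all 19 alternatives: rpn1 was called in 11 (adjusted p 0.0121 to 0.611, limma), mogs was called in 9 (adjusted p 0.0185 to 0.611, limma), prkcsh was called in 10 (adjusted p 0.0167 to 0.611, limma) and srp72 in 8 (adjusted p 0.0191 to 0.611, limma). All 4 were lost without sample 1, 3, 4 or 7 and with plain RPM scaling, under which 5 genes of the whole table were called higher, against 181 as deposited. Without control sample 5, only rpn1 of the 4 was called. In all 4 genes the implied control, at 206, 34.9, 116 and 31.5, is above both deposited controls and below every activated library. With that value as 1 more control, over 7288 genes, only prkcsh of the 4 was called by limma. Of the 7288 genes, 1.36% were called higher in that fit. In the authors' deposited table mogs (FDR 0.0369) and prkcsh (FDR 0.0116) are listed as higher, and rpn1 (FDR 0.0671) and srp72 (FDR 0.149) are not.

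**Figure D5:**
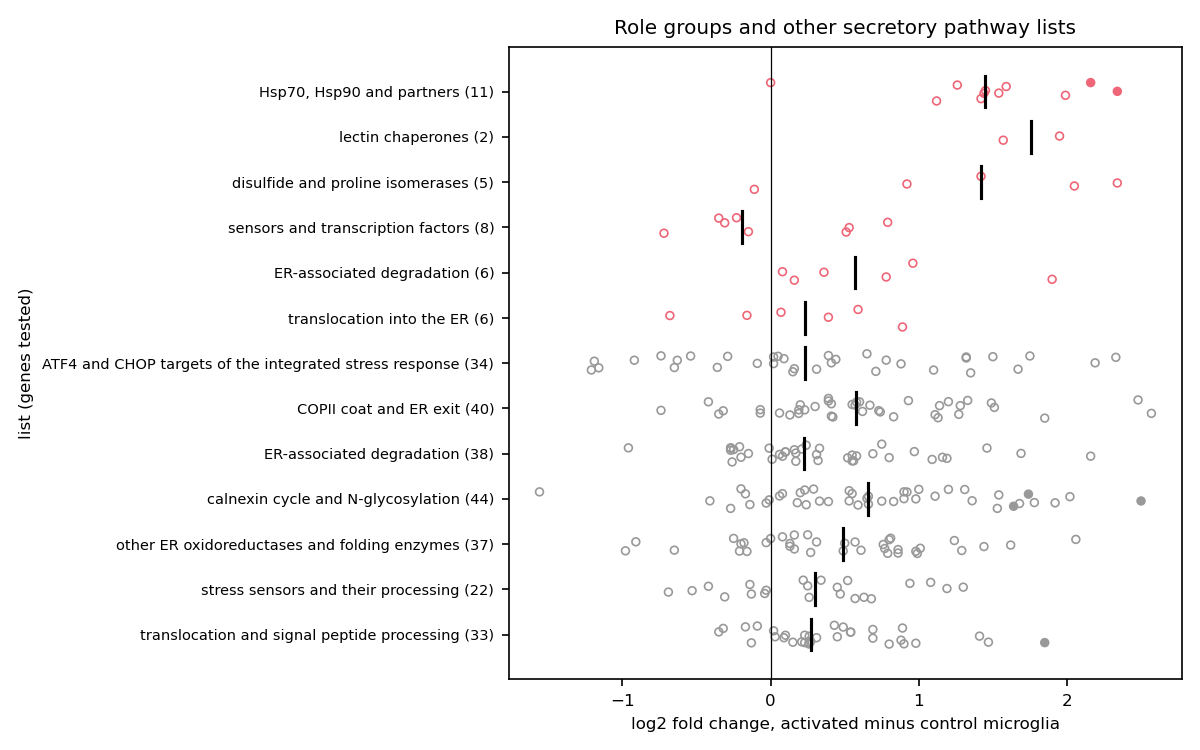
Log2 fold change between activated and control microglia (horizontal axis) for the 6 role groups (red) and 7 other secretory pathway lists (grey), 1 point a gene, with the number of genes tested in brackets (vertical axis). Black bars are medians and filled points passed the test. The medians run from -0.19 for sensors and transcription factors to 1.76 for lectin chaperones, and among the grey lists the calnexin cycle and N-glycosylation genes have the highest, 0.65.

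By list, the median of activated against control was 0.65 for the calnexin cycle and N-glycosylation (44 genes), 0.57 for the COPII coat that carries cargo out of the ER (40 genes), 0.49 for other ER oxidoreductases and folding enzymes (37 genes), 0.30 for stress sensors and their processing (22 genes), 0.27 for translocation and signal peptide processing (33 genes), 0.24 for targets of Atf4 and Chop (34 genes) and 0.22 for other ER-associated degradation genes (38 genes). None of the 248 was called at 24 h or 48 h against control or between the times. Of all genes, 0.00461% were called higher and 0% lower at 24 h, and 0% at 48 h and between the times. The absence of calls is thus no feature of these lists.

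Against the other brain cells, control microglia had 31 of the 248 called higher and 23 lower, where 15.1% and 20.2% of all genes were called, and activated microglia 102 higher and 26 lower, where 22.9% and 27.6% were. The upward share of the 248 in control microglia is thus no larger than that of all genes. The targets of Atf4 and Chop split in control microglia, with 8 higher and 8 lower. Among them cebpb was higher (4.49 ± 0.61), and vldlr (-3.88 ± 0.49), atf5a (-3.45 ± 0.67) and psat1 (-3.28 ± 0.80), the last an enzyme of serine synthesis, were lower. They split in activated microglia too, with 11 of 34 higher and 8 lower and a median of 0.03, where that of all genes was -0.05. There cebpb (4.88), mthfd1l (3.80) and slc3a2a (3.05) were higher and stc2a (-3.39) was lower. Within translocation, tram1 and tram2, which assist the channel, were higher in control (3.01 and 1.75) and in activated microglia (3.04 and 2.56), wrb was lower in control (-1.80), and ssr4 (2.06) and srp72 (1.96) were higher in activated microglia.

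The other lists hold calls in both directions too. The degradation gene derl3 was lower in control (-2.83) and activated microglia (-3.08), as was trim13 (-2.06 and -1.89), while man1b1b was higher in both (2.36 and 2.09), os9 was higher in control (1.15) and vcp in activated microglia (2.43). In N-glycosylation, tusc3 was lower in both (-2.39 and -2.80) and gmppb higher in both (1.90 and 2.80), clgn (-1.92) and uggt2 (-1.79) were lower in control, and stt3a (3.25) and ddost (2.77) higher in activated microglia. Of the exit genes, tmed5 was higher in both (1.87 and 3.02) and sar1ab (-2.19 and -2.54) and kdelr3 (-1.61 and -2.35) lower in both, with tmed4 lower in control (-2.04) and tmed1b higher in activated microglia (2.89). Among folding enzymes p4ha1a was higher in both (3.27 and 2.36) and fkbp14 lower in both (-2.39 and -2.39). In p4ha1a, however, 48 h sample 8 stood at 1.85, within the brain range of 1.09 to 2.27. The remaining activated libraries had 15.8, 19.1 and 33.2. In control, ero1lb (1.91) was higher and fkbp9 (-1.77) lower, and pdia5 (2.56) and ero1l (2.38) were higher in activated microglia. Signal of fkbp14 was 0.223, the value at 0 reads, in every microglia library, as was that of fkbp9 in both controls. The sizes of these folds thus depend on that floor. Of the sensor partners, traf2b (1.73) and eif2s1b (1.09) were higher in control, and rtcb, the ligase that joins the spliced ends of xbp1 mRNA in mammals (1.89), eif2s1a (1.62) and eif2s1b (1.61) were higher and nfybb (-1.46) lower in activated microglia.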

How the data were processed

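RNA from sorted cells was sequenced after SMARTer cDNA synthesis, per the labels' protocols. GRCz10 is the build, and edgeR, SAMtools 0.1.18 and TopHat2 2.0.5 are the tools, in the submitters' processing notes. The values deposited by the authors are a normalized read signal per gene. Each column is a constant (0.223, the value at 0 reads) plus whole multiples of a step, so reads per library were recovered (100% of values within 0.05 of a whole step). The authors' deposited table also gives log2 fold changes and FDR values, a p-value adjusted over genes. Here, log2(value + 1) of 9 libraries and 21714 genes (2 or more libraries at a value of 1 or above) was tested with limma 3.58.1 in R 4.3.3 (trended empirical Bayes, Benjamini-Hochberg adjustment), separately for each comparison, and an adjusted p under 0.05 is a call. Fold changes on this scale understate the change of low genes. The implied control is 3 times the control mean that the authors' folds give, minus samples 1 and 5. Every gene of the list found by symbol is described, and of each pathway list the called genes, up to 4 per comparison by size. The genes and lists were chosen with earlier results of these data known. Figures were drawn with matplotlib 3.10.9.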

Additional observations from a re-analysis of the deposited data

Results flagged for a closer look

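In the 4 activated libraries, which pool 24 h and 48 h, 6 of the 38 genes had a highest or lowest sample set apart from the other 3 by a gap larger than Dixon's 95% critical value allows. Chance gives about 1 in 20 groups, and 14.7% of all genes met the same criterion here. The 48 h sample 8 stood apart for canx, with a low value of 647, and for atf6 (138), sec61g (56.1) and sec63 (142), with high ones. The 48 h sample 4 stood apart with low values for manf (55) and pdia4 (214).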

How the results depend on the processing

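No paired analysis was possible because the labels name no set, batch or fish that links samples across groups. Whether such links exist is not known. For activated against control microglia, the number of the 38 called higher (2 as reported) was 0 with the column of control sample 9 used as a control as deposited, with both identical columns left out and with plain RPM scaling, 5 in 1 fit over all 9 libraries, 6 with quantile normalization, 7 with a filter of 5 in 2 libraries, 9 with array weights and 10 over genes with a mean of at least 20. Leaving out 1 library gave 0 to 7 called higher and 0 to 1 lower. The 6 called with quantile normalization include hsp90b1 and not hspa5. Of all 21714 genes, 181 were called higher as deposited, 346 with quantile normalization and 5 with plain RPM scaling. The counts of the 38 thus move with those of the whole table. For the other settings and for leaving out 1 library no share of all genes is given, so those counts are no result about the ER genes alone. The median of the 38 fell from 0.84 to 0.54 with the sample 9 column as a control. At 24 h, 2 were called over genes with a mean of at least 20. At 48 h, 1 was called with the filter of 5, 1 in the fit over all 9 libraries and 2 over genes with a mean of at least 20, and the median was 0.45 with the sample 9 column and 0.45 with quantile normalization. Between 48 h and 24 h the median was -0.42 with plain RPM scaling, and leaving out 1 library gave -0.16 to 0.03, its sign turning without 48 h sample 4. For control microglia against the other brain cells, leaving out 1 library gave 4 to 18 called higher, 0 to 1 lower and a median of 0.84 to 1.46, the median was 1.39 with the sample 9 column and 0.75 with plain RPM scaling, and 1 gene, calr, was called lower with the filter of 5, quantile normalization, plain RPM scaling, array weights or a mean of at least 20. For activated microglia against the other brain cells the median was 1.44 with plain RPM scaling. Plain RPM scaling moved the median of all genes by over 0.1 in 4 comparisons, from -0.14 to -0.48 for control microglia and from -0.05 to -0.42 for activated microglia against the other brain cells, from 0 to -0.13 at 48 h against control and from -0.04 to -0.24 between the times. Relative to all genes, the median of the 38 in these was 1.22, 1.86, 0.71 and -0.19 with plain RPM scaling, against 1.22, 1.92, 0.80 and -0.07 as deposited. The causes of these differences were not tested, except that leaving out samples and raising filters changes the number of samples or genes by construction. The quasi-likelihood test and TMM scaling were not run. Depth limits few of the 38, since the lowest value at 3 reads is 0.439 and the highest 0.687, and only dnajb9b stood below 10 in every library.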
